A study of Caenorhabditis elegans with 52 samples.

Results

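The cuticle collagen genes of *C. elegans* were taken as the protein-coding genes of the Ensembl WBcel235 annotation named *col-* and a number. This name gave 156 of 19973 protein-coding genes (0.781%) on chromosomes I to V and X, with 41 on chromosome IV, 31 on V, 27 on X, 24 on II, 21 on I and 12 on III. Histone H3 had been mapped by native ChIP-seq, without crosslinking, in nuclei isolated from germ cells of young adult hermaphrodites. Of the 52 samples of the series, 16 are H3 samples in 8 groups of 2. Both samples of a group had been pooled by the authors into 1 merged library, and the 4 deposited tables each set 2 merged libraries side by side. The groups are wild type (VC2010) and *prde-1* (SX2499, the *mj207* allele), and the strain YL701 with ISW-1::eGFP::AID and TIR1 under the *mex-5* promoter, kept for 3 h on ethanol plates or on plates with auxin at 1 mM. Chromatin of every group was last washed in NaCl at 150 mM (low salt, a value from the study's methods) or at 500 mM (high salt).

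PRDE-1 is a germline component of a complex that is required for transcription of the clustered piRNA genes of chromosome IV. ISW-1 is the ATPase of a chromatin remodeler that slides nucleosomes, and its degron tag marks it for destruction when auxin is present. Per the study's methods, *prde-1* animals were harvested at a later hour than wild type. The study's strain table holds no YL701 and lists these 2 alleles together only in YL704, which also carries a *prde-1* transgene. The depletion of ISW-1 was not checked here, and H3 occupancy measures no transcript, so neither the germ cell identity of the nuclei nor the silence of the *col* genes could be checked. Under high salt the genotype fields of wild type and *prde-1* are exchanged against the titles, while the strain fields and descriptions match the titles. The salt named in the treatment fields of ethanol under high salt and auxin under low salt also goes against the titles, which the descriptions match. The titles were followed throughout. Were the genotype fields right, the signs of the *prde-1* changes under high salt would be the opposite. Under the titles, protein-coding genes of the piRNA domains other than *col* genes had negative median changes in *prde-1* at both salts, -0.55 under low and -0.45 under high salt in the start region and -0.61 and -0.67 in the body. Were the treatment fields right, both auxin comparisons would set auxin under high salt against ethanol under low salt. With 1 merged library per group no replicate error could be computed. Intervals below are exact binomial 95% intervals of a median over genes and cover the spread between genes only. Those of the nucleosome spacing are over pooled distances, several of which come from the same gene and are not independent.

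Cuticle collagens are secreted by the hypodermis, the worm's skin, where they are cross-linked into a new cuticle before each molt. Their genes are switched on in waves that follow the molting cycle and are not known to work in germ cells. The proteins hold runs of Gly-X-Y triplets, in which glycine recurs at a fixed step and X and Y are often proline or hydroxyproline. Glycine codons start with GG and proline codons with CC, so a Gly-X-Y stretch is written in DNA that is rich in G and C.

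The genes were short and rich in G and C. Their median length was 1220 bp, against 2027 bp over all protein-coding genes, and the median was 2 exons. The median GC content of the gene body was 49.1%, ranging from 36.5% to 60.4%, against 36.4% over all protein-coding genes. Of the 156 genes, 109 lay above the 95th percentile of all genes (45.4%). In the 500 bp before the gene start the medians were close, at 35.7% and 33.8%. Translation of the longest annotated coding sequence gave a median of 51 Gly-X-Y triplets in runs of 3 or more, and 154 of the 156 genes had more than 20. The exceptions were *col-55* with 20 and *col-17* with 0, whose annotated reading frame holds no such run. One gene of the name, *col-99*, is known as a transmembrane collagen and not as part of the cuticle. It is the longest, with 9946 bp, and was kept because the rule is the name.

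The coding stretches below show this composition, each as the first 30 bases of the longest Gly-X-Y run that lie in 1 exon, with the glycine codons in capitals. The sequences are from RefSeq WBcel235 (ce11), 5′ to 3′ on the gene's strand.
*col-19* (chrX:422215-422244, plus strand): GGAcgtccaGGAccaaaaGGAccatcaGGA
*col-10* (chrV:9164764-9164793, minus strand): GGAccagctGGAccagccGGAccagaaGGA
*col-12* (chrV:10424125-10424154, minus strand): GGAggcccaGGAccacaaGGAgatgccGGA
*col-137* (chrIV:16601674-16601703, minus strand): GGAgccccaGGAccacaaGGAgacgccGGA
*col-99* (chrIV:139853-139882, minus strand): GGCccacggGGTccacctGGCcttccaGGA
These stretches were 56.7% (*col-19*), 66.7% (*col-10* and *col-12*), 70% (*col-137*) and 73.3% (*col-99*) G and C. The same stretch of *col-13* was identical to that of *col-12*, whose copy is described further on.

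The genes also shared a sequence in front of the gene start. TATAAA, the core of a TATA box that positions the transcription machinery in many genes, lay on the gene's strand within the 60 bases before the annotated start of 69 of 156 *col* genes (44.2%), against 9.46% of all protein-coding genes. On the other strand it was found before 8 *col* genes (5.13%), against 5.72% of all. In the 69 genes its first base lay at a median of 31 bases before the start. For 28 of them (40.6%) it lay 35 to 25 bases before the start, as for 31.2% of all protein-coding genes with TATAAA. The 30 bases before the start are given for genes of differing occupancy, with TATAAA in capitals.
*col-19* (chrX:421677-421706, plus strand): gTATAAAaggaaacggtcaccatttagaaa
*col-10* (chrV:9165308-9165337, minus strand): gTATAAAagggaagggtaacactgaataag
*col-155* (chrV:11389877-11389906, minus strand): TATAAAagtcgaatcgacagacattttctt
*col-90* (chrIII:7948808-7948837, plus strand): agTATAAAaaggatatgtgagggtaattgc
*col-71* (chrII:3502571-3502600, minus strand): ctttgacgtctttagggaacacttttttcc
A match is a description of the letters and not of binding. The annotated start is the coding start in 37 genes and lies a median of 14 bp before it in all. Since 5′ ends of many worm transcripts are removed by trans-splicing, the true start of transcription may differ.

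Each table row is 1 nucleosome position with its occupancy in each library, the H3 minus input signal at the summit, scaled by the authors to the same total in every library. The occupancy of a gene was the mean over its rows, in the start region (500 bp before the gene start) or in the gene body. A value rested on few rows. The median was 3 rows for the start region, as over all genes, and 6 or 7 rows for the body, against 11 or 12 over all genes. The 4 tables were normalised separately, so levels are compared across tables only as percentiles or as log2 ratios to the median of all protein-coding genes of the same library.

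In the start region the *col* genes carried less H3 than most genes in every library, with medians at the 28.5th to 44.5th percentile. In wild type under low salt, occupancies of 155 genes with rows ranged from 0 to 757 with a median of 107, and the median over all protein-coding genes was 151. The median log2 ratio to all genes was -0.50 (-0.71 to -0.29, n = 155), and 113 of the 155 genes lay below the median of all. In *prde-1* under low salt it was -0.69 (-0.85 to -0.46) and in ethanol under low salt -0.45 (-0.59 to -0.29). In auxin under low salt it was -0.29 (-0.46 to -0.03). Under high salt the ratio was -0.18 (-0.34 to -0.02) in wild type, -0.47 (-0.66 to -0.31) in *prde-1*, -0.40 (-0.63 to -0.24) in ethanol and -0.13 (-0.39 to 0.03) in auxin. The interval therefore lay below 0 in 7 of the 8 libraries, the exception being auxin under high salt. Germline genes, a list of 24 that includes *gld-1* and *syp-1*, had medians at percentiles of 79.1 in wild type under low salt and 84.3 under high salt. The *srh* chemoreceptor genes, another large somatic family, had medians at percentiles of 32.7 to 39.1 in the 8 libraries. These were higher than those of the *col* genes in 4 libraries and lower in the other 4, which are wild type and ethanol under high salt and auxin at both salts.

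**Figure D1:**
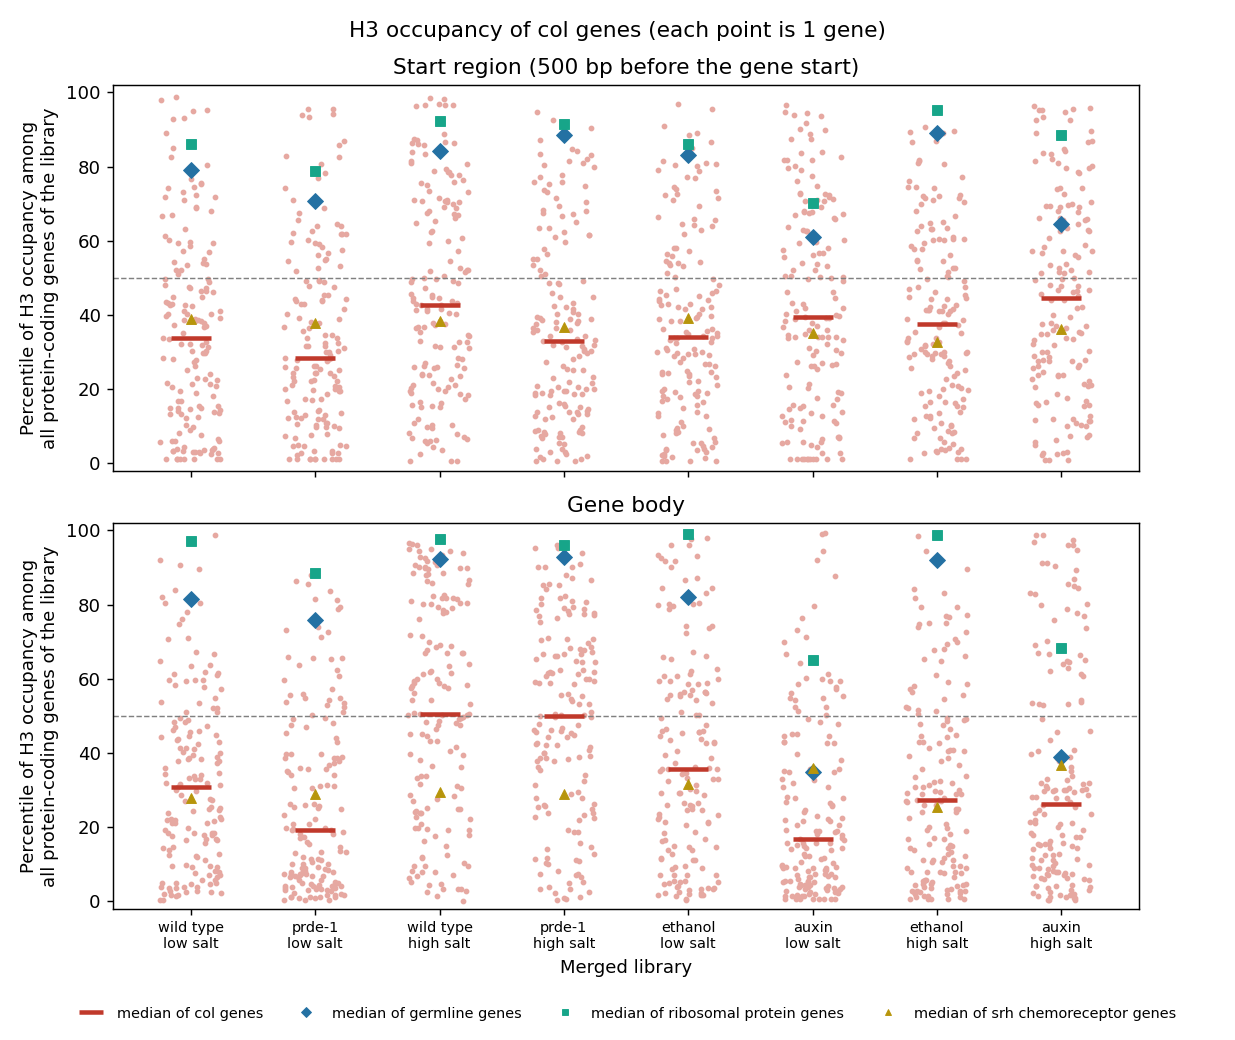
Percentile of H3 occupancy (y axis) of each *col* gene among all protein-coding genes of the same merged library (x axis), in the start region (top) and the gene body (bottom). Points are genes, the red bar is their median and symbols are medians of other gene lists; in the start region the red bar lies under 50 in all 8 libraries, while in the body it reaches 50.6 and 50.0 in wild type and *prde-1* under high salt.

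In the gene body the level depended on the library. Under low salt the median log2 ratio to all genes was -0.38 (-0.57 to -0.24) in wild type, -0.73 (-1.05 to -0.52) in *prde-1*, -0.25 (-0.37 to -0.09) in ethanol and -0.87 (-1.13 to -0.66) in auxin. In wild type under high salt the ratio was 0.01 (-0.04 to 0.13). In *prde-1* it was -0.00 (-0.10 to 0.15), so that the *col* genes were at the level of all genes there. It was -0.48 (-0.71 to -0.39) in ethanol and -0.41 (-0.60 to -0.34) in auxin under high salt. The other 20 cuticle collagens of the list, among them *rol-6* and *sqt-3*, had body medians at the 49.5th percentile in wild type under low salt and the 72.8th under high salt, and at the 62.9th in *prde-1* under high salt. In *prde-1* under low salt they lay at percentile 20.9, next to 19.2 for the *col* genes. In auxin under low salt the percentiles were 17.3 and 16.7, in ethanol under low salt 40.2 and 35.7, in ethanol under high salt 21.9 and 27.2, and in auxin under high salt 22.6 and 26.3, in the same order.

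GC content moved with the body level. Where the median of genes in the same of 20 bins of GC content was subtracted, the body ratio became 0.01 (-0.23 to 0.28) in auxin under low salt, -0.02 (-0.24 to 0.12) in ethanol under high salt and 0.04 (-0.08 to 0.19) in auxin under high salt, and in ethanol under low salt it became -0.01 (-0.16 to 0.16). In *prde-1* under low salt -0.34 (-0.61 to -0.02) was left. The body ratio of wild type under low salt stayed inside its interval of -0.57 to -0.24. In the start region the ratio after the same subtraction stayed inside the interval given above in every library, although its own interval reached past 0 after auxin at both salts. In the start region too, GC content and level were related over all genes, with a Spearman correlation of -0.31 across 19699 genes after auxin under low salt. Across the 19639 genes with a value, the Spearman correlation of body GC content with body occupancy was -0.51 in auxin under low salt, and across 19643 genes it was 0.04 in wild type under high salt. Across the *col* genes these correlations were -0.27 and -0.01. Genes are not independent replicates, and these correlations are descriptions within a library. Exons, which hold the Gly-X-Y stretches, were compared with introns. In auxin under low salt the 771 rows centred in exons of *col* genes had a median occupancy of 16.98, against 48.2 for the 330 rows in introns. In wild type under high salt these medians were 125 and 114.

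**Figure D2:**
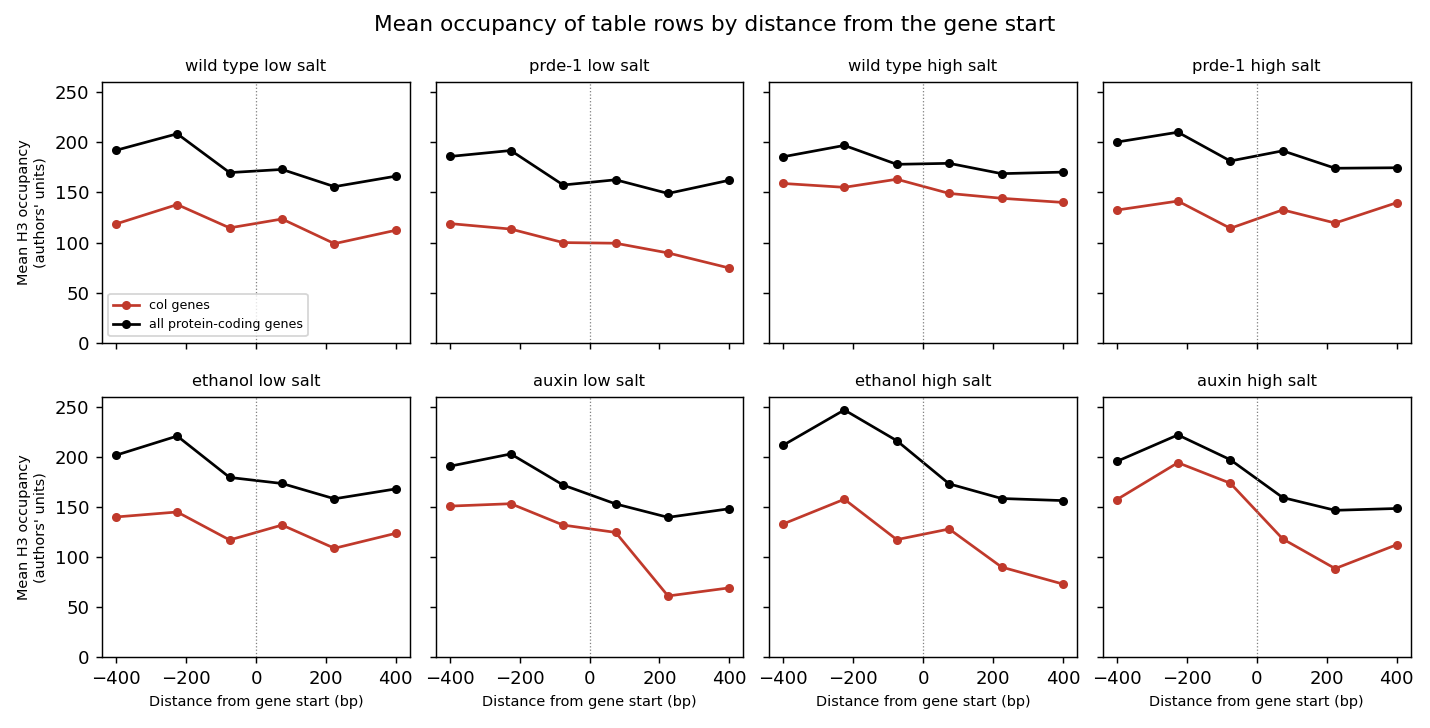
Mean H3 occupancy of table rows (y axis, in the units of the deposited tables) against distance from the annotated gene start (x axis, 6 classes from -500 to 500 bp, rows at 0 included) for *col* genes (red) and all protein-coding genes (black) in the 8 merged libraries. The red line lies under the black line in every class of every library; after auxin under low salt it drops from 125 just inside the gene to 61.4 in the next class.

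Around the gene start the mean occupancy was lower on both sides. The median over rows from 150 to 1 bp before the start was higher after auxin under high salt, at 158 against 145 over all genes. In the class from 150 to 1 bp before the start the mean occupancy of *col* rows was 115 in wild type under low salt, against 170 for all protein-coding genes, and 163 against 178 in wild type under high salt. From 150 to 299 bp inside the gene it was 98.9 against 156 in wild type under low salt. In the same class after auxin under low salt it was 61.4 against 140, and 49.0% of the *col* rows there were listed at 0, against 28.0% of rows of all genes. In bins of 20 bp no position stood out in all libraries. The bin with a dyad in the largest share of *col* genes was 160 to 141 bp before the start in wild type under low salt (14.1%) and 20 to 1 bp before it in wild type under high salt (17.3%). With 156 genes such a share rests on few genes, for example 27 of 156 in the last case.

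Nucleosomes over the *col* genes were farther apart than over all genes when long gaps were counted, but hardly so in wild type and *prde-1* under high salt. The median distance between neighbouring dyads, from 500 bp before the start to the gene end and up to 1000 bp, was 210 bp (201 to 219, 995 distances) in wild type under low salt, against 193 bp over all genes. In the other low-salt libraries it was 204 against 191 bp in *prde-1*, 209 against 196 bp in ethanol and 209 against 199 bp in auxin. Under high salt it was 189 (183 to 192) against 186 bp in wild type and 186 (182 to 191) against 184 bp in *prde-1*. Both of these intervals hold the median of all genes. It was 211 against 194 bp in ethanol and 212 against 191 bp in auxin under high salt. With distances up to 300 bp only, the medians were 180 against 178 bp in wild type under low salt and 174 against 174 bp under high salt. With this limit they were 187 against 181 bp in ethanol and 171.5 against 178 bp in auxin under low salt, so the order was turned in auxin. They were also shorter than over all genes in *prde-1* under high salt (171.5 against 173 bp), and longer in the other 3 libraries. In parallel, 25.5% of the rows in the *col* windows were listed at 0 in wild type under low salt, against 18.9% over all genes, and 37.95% against 25.5% in auxin under low salt. A distance across a row at 0 spans the position left out.

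The fuzziness score, which is small where reads centre closely on the dyad, was lower over *col* genes. Its median over genes was 30.4 (29.1 to 32.2) in wild type under low salt against 35.4 over all genes, and 32.7 (31.3 to 33.9) against 35.1 under high salt. In *prde-1* it was 30.1 against 35.6 under low salt and 33.7 against 35.6 under high salt. In ethanol the scores were 31.2 against 35.8 and 32.8 against 37.0, and in auxin 35.2 against 36.3 and 35.1 against 37.7, in both cases at low and then high salt. The interval in auxin under low salt, 33.2 to 37.2, held the median of all genes. With rows of occupancy 50 or more only, the median in wild type under low salt was 29.02 against 33.9 over all genes, so the score was lower among well-occupied positions too.

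Single genes had no fixed place among all genes. Over the 8 libraries the percentile of a *col* gene in the start region spanned a median of 65.6 points, against 61.7 over all genes, and in the body 66.2 against 54.0 points. In the start region 19 of 155 *col* genes (12.3%) lay below the median of all genes in all 8 libraries, against 5.89% of all genes, and 1 lay above it in all 8 (0.645%), against 10.0% of all genes. The gene that lay above it throughout was *col-157*, whose start-region percentile ranged from 64.5 to 98.7. A stretch near it has a copy elsewhere in the genome, which makes its value uncertain. The next highest means over libraries were those of *col-135* (77.0), *col-71* (75) and *col-137* (71.8). The lowest were *col-80* (13.1), *col-39* (14.7), *col-99* (15.9) and *col-144* (17.6). For the gene body the highest means were *col-72* (78.7), *col-52* (73.6), *col-90* (72.3) and *col-143* (69.2), and the lowest *col-65* (7.13), *col-7* (7.34), *col-39* (13) and *col-177* (13.4). Of these, *col-72*, *col-52*, *col-65* and *col-7* have a near-identical copy of part of their sequence elsewhere, so their values are uncertain too. *col-72* has the lowest GC content of all *col* genes in its body, at 36.5%. The named genes did not rank by GC content, with 55.0% in *col-143* and 38.8% in *col-177*.

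The best known genes of the family showed the same variation. *col-19* (chrX:421707-422691), a gene of the adult cuticle, had start-region occupancies of 120 in wild type and 167 in *prde-1* under low salt, and 44.7 and 96.2 under high salt. In its gene body it went from 147 in ethanol to 0 in auxin under low salt, and from 1.74 in ethanol to 55.7 in auxin under high salt, so the 2 salts gave opposite directions. *col-10* (chrV:9164292-9165307) had start-region occupancies of 30.8 in ethanol and 128 in auxin under low salt, and of 6.36 and 262 under high salt. It was higher after auxin at both salts. *col-99* (chrIV:137974-147919), the transmembrane collagen, was listed at 0 in its start region in wild type, ethanol and auxin under low salt, and had body percentiles from 30.0 to 72.3. For *col-2*, *col-7* and *col-17* the start-region percentiles ranged from 37.0 to 88.8, 6.59 to 71.0 and 3.71 to 86.3. *col-1* is not among the gene names of the annotation.

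Near-identical copies limit some of these values. For 35 *col* genes at least 140 bp of the gene or its start region had a match of 95% identity or more elsewhere in the genome, and reads that map equally well to both places would not pass the authors' filter on mapping quality. *col-12* and *col-13* share 997 bp at 99.7% identity. The body of *col-12* had occupancies of 21.8 and 67.5 in wild type and *prde-1* under low salt, at percentiles of 1.54 and 13.3, and *col-7*, a copy of *col-62* over 1367 bp at 98.8% identity, had a body listed at 0 in auxin under high salt. The windows of 78 *col* genes overlapped another protein-coding gene. Leaving out either set moved no median level outside its interval.

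In *prde-1* against wild type, the *col* genes as a group were close to all genes in the start region under low salt and below them under high salt. The median log2 change over 155 genes was -0.23 (-0.49 to 0.22) under low salt against -0.05 over all genes. The difference from all genes had the opposite sign without the piRNA domains (0.03), without genes that have a near-identical copy (0.09) or with the GC bin median subtracted (0.05). Over 156 genes the median was -0.29 (-0.52 to -0.01) under high salt, against 0.10. Under low salt 38 *col* genes were 2-fold or more higher and 48 lower, against 16.5% and 18.7% of all genes. Under high salt 27 were higher and 42 lower, against 19.5% and 16.7% of all genes. The shares of *col* genes were 24.5% and 30.97% under low salt, above the background in both directions, and 17.3% and 26.9% under high salt, above it only for lower values. The 2 salts gave the same sign in 75 of 155 genes (48.4%), against 50.7% of all genes, and the Spearman correlation between the changes at the 2 salts was -0.12 across 155 genes.

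The piRNA domains hold *col* genes whose *prde-1* changes in the start region were large at both salts. They were taken as 2 stretches of chromosome IV dense in piRNA genes (chrIV:4800001-7000000 and chrIV:13500001-17300000). The domains hold 4 *col* genes, all in the second of these, *col-133* (chrIV:14098325-14099356), *col-135* (chrIV:15129655-15131797), *col-137* (chrIV:16601480-16602776) and *col-138* (chrIV:17182884-17183729), all on the minus strand. Their start regions were among the most occupied of all genes in wild type. *col-133* had occupancies of 438 in wild type and 70.1 in *prde-1* under low salt, and 536 and 65.6 under high salt. *col-135* had 674 and 76.2 under low salt, and 656 and 259 under high salt. In both genes *prde-1* had the lower value at each salt. *col-137* had 492 and 187 under low salt, and 660 and 64.5 under high salt. *col-138* had 435 and 120 under low salt, and 519 and 123 under high salt. All 4 lay at the 92.8th percentile or above in wild type at both salts.

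The log2 changes in *prde-1* were -2.63 and -3.01 for *col-133*, -3.13 and -1.34 for *col-135*, -1.39 and -3.34 for *col-137*, and -1.85 and -2.07 for *col-138*, at low and high salt. All 4 of 4 were thus 2-fold or more lower at both salts, as were 10 of 151 *col* genes outside the domains (6.62%) and 4.75% of all protein-coding genes. Among the other 880 protein-coding genes of the domains with values, 185 were (21.0%), and their median changes were -0.55 under low salt and -0.45 under high salt. The genes were found by position, but 3 of them are also the 3 largest falls of the family under low salt by the rule for named genes, and *col-137* is the first under high salt. In the gene body 3 of the 4 genes were 2-fold or more lower under low salt and 1 under high salt. The 1 gene lower at both (25%, against 24.8% of the other domain genes) was *col-137*, with 206 and 47.8 under low salt and 359 and 53.3 under high salt. *col-138* had 415 in wild type under low salt and was listed at 0 in *prde-1*, and had 274 and 183 under high salt. *col-133* had 158 and 3.61 under low salt, and 175 and 144 under high salt. *col-135* had 63.8 and 40.4 under low salt, and 210.4 and 113 under high salt. The body values were thus lower in *prde-1* in each case, but mostly by less than 2-fold under high salt. After auxin the start-region changes of the 4 genes ranged from -0.81 to 0.64 under low salt and from -1.22 to 0.82 under high salt. Each start-region value rests on 2 to 4 rows.

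**Figure D3:**
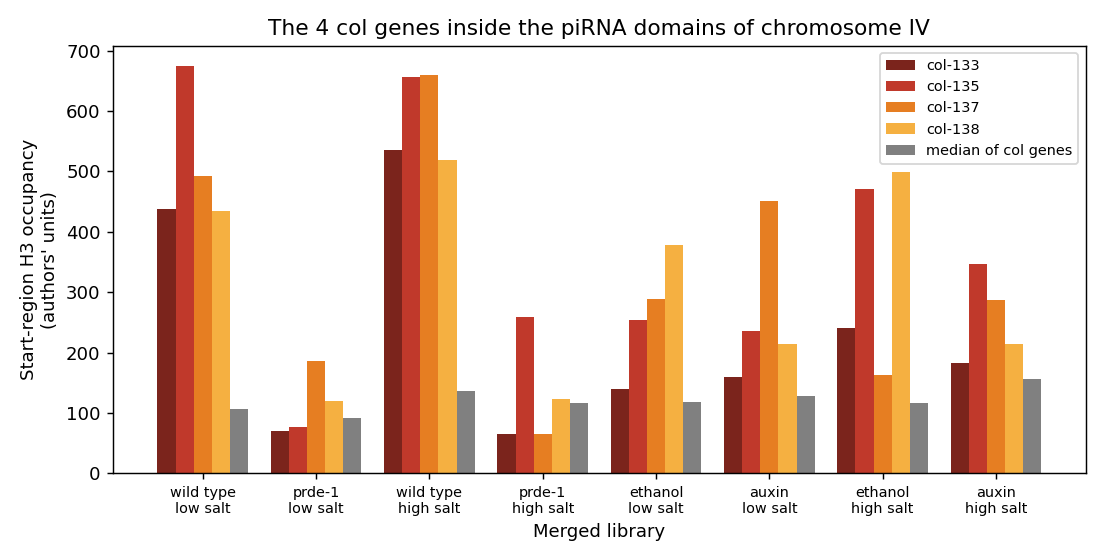
Start-region H3 occupancy (y axis, in the units of the deposited tables) of the 4 *col* genes inside the piRNA domains (coloured bars) and the median of all *col* genes (grey bars) in the 8 merged libraries (x axis). Bars of 1 table (neighbouring pairs) can be compared directly, since the 4 tables were normalised separately; all 4 genes lie at 435 or more in wild type at both salts, and lie at or below 259 in *prde-1*.

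piRNA genes start close to these genes. The windows of *col-135*, *col-137* and *col-138* hold the starts of 2, 6 and 2 annotated piRNA genes, and that of *col-133* none, the nearest lying 167 bp from it. In all, 7 *col* genes have such a start in their window. Those outside the domains are *col-2*, *col-35*, *col-45* and *col-115*, with 1 each. The share over all protein-coding genes was not computed. Clustered piRNA genes carry an upstream motif with the core CTGTTTCA. Within 500 bp before the gene start, on either strand, this core was found in 2 of the 4 *col* genes inside the domains. It was found in 4 of 156 *col* genes (2.56%), in 4.06% of all protein-coding genes and in 24.7% of protein-coding genes of the domains. The matches are shown in 30 bases on the strand that holds the core, in capitals.
*col-137* (chrIV:16602847-16602876, plus strand): taaaaaaaaatCTGTTTCAcatacgatttg
*col-138* (chrIV:17183802-17183831, plus strand): aaaagttatcaCTGTTTCAgaaatttttca
*col-138* (chrIV:17184185-17184214, minus strand): aaatttttttaCTGTTTCAgcaactgaatt
These letters say nothing of whether a factor was bound there. Of the 4 *col* genes inside the domains, *col-133* and *col-135*, whose start regions hold no match, fell most there under low salt. Under high salt *col-137*, which holds a match, fell most and *col-135* fell least. A relation of the match to the change was not tested.

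Outside the domains, the named genes with the largest changes in the start region in *prde-1* did not belong to 1 group. *col-126*, which has a near-identical copy in *col-127*, had 519 in wild type and 58.3 in *prde-1* under high salt, and 90.8 and 30.8 under low salt. Its high-salt values rest on 1 row. *col-184* had 272 and 32.4 under high salt. Higher values were found for *col-51* (11.3 in wild type and 322 in *prde-1* under low salt), *col-130* (37.3 and 186) and *col-158* (55.8 and 258). Under high salt they were found for *col-79* (81.8 and 307), *col-90* (137 and 333) and *col-120* (98.6 and 235). These 8 genes were chosen for their change, and their values are a description.

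In the gene body the *prde-1* change under low salt was -0.27 (-0.48 to -0.14) against -0.00 over all genes, with 13 *col* genes higher and 38 lower by 2-fold, against 5.51% and 8.99% of all genes. Under high salt it was -0.08 (-0.18 to 0.09) against 0.07, with 12 higher and 12 lower, against 5.64% and 7.30% of all genes. A body of few rows passes 2-fold more often. Among protein-coding genes with 4 to 8 rows in the body, 14.2% were 2-fold or more lower under low salt. Among the 98 *col* genes with as many rows this share was 32.7%. After the subtraction of the GC bin median, the low-salt difference from all genes was -0.01 (-0.24 to 0.15).

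After auxin the *col* genes differed between the 2 salts and between start region and body. In the start region the median log2 change under low salt was 0.00 (-0.16 to 0.41) against -0.08 over all genes. Under high salt it was 0.40 (0.12 to 0.66) against 0.04. Under high salt 48 *col* genes (30.8%) were 2-fold or more higher, against 23.1% of all genes, and 20 (12.8%) were lower, against 19.8%. Under low salt 41 were higher and 37 lower, against 17% and 20.9% of all genes. The high-salt difference from all genes was 0.37, and it stayed at 0.37 with GC bins subtracted. The *srh* genes had a high-salt median of 0.46, and germline and ribosomal protein genes had medians of -0.92 and -0.89. Because each library was scaled to the same total, where 0 lies is set by the scaling, which moves all lists alike and leaves the separation between them.

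**Figure D4:**
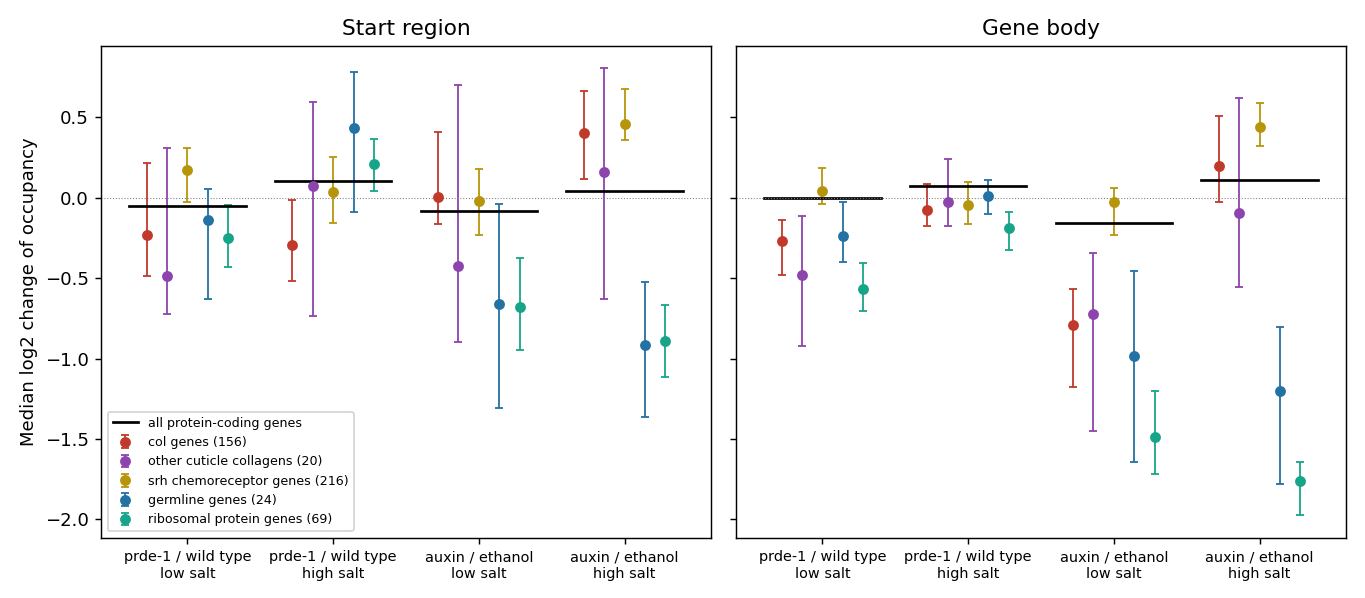
Median log2 change of occupancy (y axis) in the start region (left) and gene body (right) for *col* genes and 4 other gene lists, in the 4 comparisons (x axis). Error bars are exact binomial 95% intervals of the median over genes, and black lines are the median of all protein-coding genes; in the start region after auxin under high salt the *col* genes lie at 0.40 and germline genes at -0.92.

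Named genes show the range of start-region changes after auxin. *col-13* had 282 in ethanol and 395 in auxin under low salt, and 139 and 535 under high salt. *col-155* had 210 and 528 under low salt, and 131 and 497 under high salt. Both were higher after auxin at each salt, and both have a near-identical copy. Under low salt the largest rises were *col-161* (0.229 in ethanol and 274 in auxin), *col-41* (20.1 and 265) and *col-37* (22.1 and 224). Of these, *col-161* also has a near-identical copy, in *col-162*, and its ethanol value is close to 0. Lower values at both salts were found for *col-71*, with 539 and 175 under low salt and 265 and 97.1 under high salt, and for *col-51*, with 244 and 103 under low salt and 211 and 79.2 under high salt. *col-79* had 235 in ethanol and was listed at 0 in auxin under low salt, and had 332 and 54.6 under high salt. *col-175* had 208 and 85.7 under low salt, and under high salt it had 107 and 100.2, a fall of less than 2-fold. Of all *col* genes, 78 of 156 had the same sign at both salts (50.0%), against 56.2% of all genes.

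In the gene body after auxin under low salt the *col* genes were lower, with a median log2 change of -0.79 (-1.18 to -0.57, n = 155) against -0.16 over all genes. Of the 155, 71 (45.8%) were 2-fold or more lower, against 13.7% of all genes, and 8 were higher, against 5.41%. The other cuticle collagens (-0.72) and the germline (-0.99) and ribosomal protein genes (-1.49) were lower too, and *srh* genes had -0.02. Under high salt the median of the *col* genes was 0.20 (-0.03 to 0.51) against 0.11 over all genes. There 43 were higher and 20 lower, against 12.6% and 9.17% of all genes. Among protein-coding genes with 4 to 8 rows in the body, 22.1% were lower under low salt, and 18.9% were higher and 14.3% lower under high salt. Among *col* genes with as many rows these shares were 54.8%, 29% and 15%. Of the 155 *col* genes, 24 were 2-fold lower under low salt and 2-fold higher under high salt (15.5%), against 2.57% of all genes, and 9 were lower at both (5.81%), against 3.03%. *col-19* and *col-51* are among the 24. *col-51* had body occupancies of 284 in ethanol and 64.1 in auxin under low salt, and 29.6 and 367 under high salt.

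The low-salt change in the body went with base composition in all genes. Among *col* genes with a body GC content of 46% or more, 59 of 104 were 2-fold or more lower (56.7%) with a median of -1.21. Among the other protein-coding genes of such GC content, 49.6% of 668 were lower with a median of -0.99. Among *col* genes under 46%, 12 of 51 were lower with a median of -0.33. After the subtraction of the GC bin median the difference of the *col* genes from all genes was -0.10 (-0.29 to 0.18). The methods of the study state a correction for GC content, but of the 4 tables only those with *prde-1* carry it in their names. Under high salt the order was turned, with a median of 0.32 for the *col* genes of 46% or more, against -0.08 for other genes of such GC content.

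**Figure D5:**
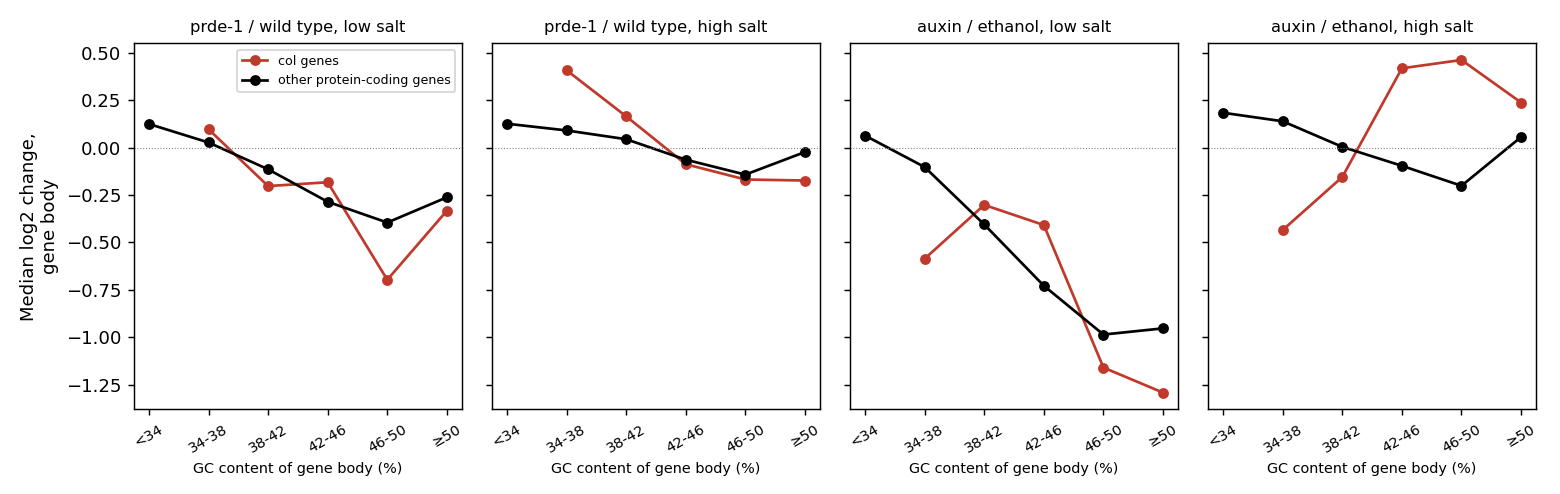
Median log2 change of body occupancy (y axis) in 6 classes of GC content of the gene body (x axis, %) for *col* genes (red) and other protein-coding genes (black), in the 4 comparisons; no *col* gene has a body GC content under 34% and only 5 lie between 34% and 38%. After auxin under low salt the medians of the classes of 46% to 50% and of 50% or more were -1.16 and -1.29 for *col* genes and -0.99 and -0.95 for other genes.

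Genes that make or regulate the cuticle without being *col* genes gave a mixed picture. Of 12 genes for modifying, processing and cross-linking collagen, such as the prolyl hydroxylase gene *dpy-18* and the oxidase gene *bli-3*, 4 were 2-fold lower and 0 higher in the start region after auxin under low salt, where 20.9% of all genes were lower and 17% higher. In the body 0 were lower and 1 was higher, against 13.7% and 5.41% of all genes. Of 10 regulators of molting and the hypodermis, such as *nhr-23* and *lin-29*, 6 were lower and 3 higher in the start region in the same comparison, and 0 were lower or higher in the body. In the start region in wild type under low salt, the regulators lay at percentile 26.4, the *col* genes at 33.8 and the modifying enzymes at 50.7. The 3 basement membrane collagen genes, whose products are made by muscle and other tissues, lay at percentile 37.3. These places were not kept in the other libraries. The regulators ranged from 12.6 in auxin under low salt to 53.4 in *prde-1* under high salt, where the *col* genes lay at 39.3 and 33.0. The basement membrane collagens ranged from 9.58 in wild type under high salt to 57.7 in *prde-1* under low salt. The modifying enzymes ranged from 39.4 in auxin to 66.5 in *prde-1*, both under low salt.

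Within the family, genes with and without TATAAA were compared, with no test. The 69 genes with TATAAA had median start-region percentiles of 32.0 in wild type under low salt and 37.7 under high salt, and the 87 without had 38.1 and 44.8. In the body after auxin under low salt their medians were -1.17 and -0.65, with median body GC contents of 51.4% and 48.4%. By chromosome the start-region percentile in wild type under low salt ranged from 20.8 on V to 44.9 on I and IV, and the body change after auxin under low salt from -0.29 on X to -1.21 on IV.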

How the data were processed

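The study's methods name bowtie2 for alignment to ce11, a mapping quality filter, Picard for duplicates, downsampling before the 2 samples of a group were pooled, a correction for GC content (only the *prde-1* and wild-type tables are named as corrected), selection of mononucleosome fragments, and DANPOS3 run against input. Occupancy as deposited is a signal at the summit after input was subtracted, and the authors gave every library the same total, so a loss over the whole genome cannot be seen. Fuzziness as deposited is a score for how widely reads scatter about the dyad, and positions are in bp of ce11. Read depth behind the values is unknown. The tables also hold the authors' log2 fold changes, p-values and FDR, which were not used, and 22180 to 25499 rows per table have no control summit and gave no control dyad.

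Here rows were assigned by centre to start regions (500 bp) and bodies of Ensembl 115 genes of WBcel235, the same assembly. Gene values are means over rows. Levels are log2 ratios to the median of all protein-coding genes, and changes are log2 ratios of treated to control after adding a pseudocount of 1 to both, so changes of low values come out too small. "Higher" and "lower" counts mean 2-fold or more. Each group is 1 merged library, so no test was made. The 16 H3 samples entered, after the authors' subtraction of their 16 input samples, and the other samples of the series were not analysed here. piRNA domains were runs of 100-kb windows with at least 20 piRNA genes, joined where at most 300 kb lay between them and used if they spanned at least 1 Mb. Copies were sought with BLAST+ 2.17.0. Named genes were textbook members, the 4 highest and 4 lowest mean percentiles per region, and per table the 3 largest falls and 3 largest rises in the start region among genes with occupancy at or above the members' median and the same sign at the other salt. The members, lists and rules were chosen with earlier results of these data known. Calculations used Python 3.11.15, NumPy 2.4.6, pandas 2.3.3, SciPy 1.17.1 and matplotlib 3.10.9, and were tested on simulated data. Alternatives are given in the closing section; 2 of them, finer GC classes and genes with 4 to 8 body rows, were chosen after seeing the data.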

Additional observations from a re-analysis of the deposited data

Results flagged for a closer look

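The change of the gene body after auxin went in opposite directions at the 2 salts. The median log2 change of the *col* genes minus that of all protein-coding genes was -0.63 under low salt and 0.089 under high salt. The difference between the salts was not tested, since each group is 1 merged library. The interval of the median under high salt (-0.03 to 0.51) holds the median of all genes, 0.11. With the GC bin median subtracted, the difference from all genes under low salt was -0.10 (-0.29 to 0.18), and with GC classes of other genes it was 0.028. Under high salt these values were 0.25 and 0.24, so the signs at the 2 salts were opposite with GC bins, where the low-salt interval held 0, and the same with GC classes.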

How the results depend on the processing

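No paired analysis was possible because the 2 samples of a group enter the tables as 1 merged library, and for the same reason no sample could be left out in turn. Of 296 values recomputed, 247 stayed within the interval of the reported value, 43 moved past it and 6 changed sign from an interval that did not hold 0. In all 23 had the other sign than the reported value. Of 192 shares of *col* genes past the fold 24 moved by more than 1.5 times. Levels below are log2 ratios to all genes and changes are *col* genes minus all genes. With the GC bin median subtracted, body levels became 0.015 in auxin under low salt, 0.039 in auxin under high salt, -0.34 in *prde-1* under low salt, -0.062 in wild type under high salt, -0.011 in ethanol under low salt and -0.017 in ethanol under high salt, and body changes -0.014 in *prde-1* under low salt and -0.10 in auxin under low salt. With GC classes of other genes, chosen after seeing the data, body levels became 0.16, 0.028 and 0.034 in auxin under low salt, ethanol under high salt and auxin under high salt, and -0.20, -0.38, -0.053 and -0.023 in wild type under low salt, *prde-1* under low salt, wild type under high salt and ethanol under low salt, and body changes 0.028 in auxin and -0.049 in *prde-1* under low salt. With medians over rows, body levels were -0.67 in wild type, -1.09 in *prde-1* and -1.81 in auxin under low salt and -0.85 in ethanol under high salt, and the auxin change under low salt was -1.27. With 200 bp before the start, start levels were -0.999 in *prde-1* and -0.78 in auxin under low salt and -0.73 in ethanol under high salt, and the auxin change under high salt was 0.65. Among genes with 4 to 8 body rows, also chosen after seeing the data, the *prde-1* body change under low salt was -0.49 and the wild-type body level under high salt 0.14. Spacing with distances up to 300 bp was 180, 178, 174 and 171.5 bp in wild type and *prde-1* at low and then under high salt, and 187, 171.5, 180 and 177 bp in ethanol and auxin in the same order, against 178, 176, 174 and 173 bp and 181, 178, 175 and 171 bp over all genes. With dyads of occupancy 50 or more it was 230, 224, 200 and 203 bp, and 229 bp in each ethanol and auxin library. Fuzziness of rows of occupancy 50 or more was 29.02 (wild type) and 28.7 (*prde-1*) under low salt, 30.7 in wild type under high salt, and 32.9 and 33.3 in auxin at low and high salt. The cause of these differences was not tested. A pseudocount of 10, leaving out rows at 0 in both libraries, the top 0.1% of rows, genes with a mean occupancy under 50, genes with copies or the piRNA domains moved no median past its interval. Read depth is unknown, and the few rows per gene limit single-gene values.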
